A study of Mus musculus with 8 samples.

Results

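Glutathione S-transferases of mouse liver were followed through 10 genes of 5 classes. They were Gsta3 and Gsta4 of the alpha class, Gstm1, Gstm2, Gstm3 and Gstm6 of the mu class, Gstp1 and Gstp2 of the pi class, Gstt1 of the theta class and Gstk1 of the kappa class. They were chosen by symbol out of 27453 genes in the counted transcripts, with earlier results of these data known. All 10 had enough reads to be tested. The assay was nanopore direct RNA sequencing, which passes native polyadenylated RNA molecules through a pore, so that 1 read stands for 1 molecule. The livers came from C57BL/6JN mice, an inbred strain, with 4 libraries titled O and 4 titled Y. In each set replicates 1 and 2 were males and replicates 3 and 4 were females, and no genotype or agent is named in the labels. The titles and the age field go against each other: by the field the O-titled mice were 12 weeks and the Y-titled mice 80 weeks of age, whereas the series text sets old mice of about 18 months against young mice of about 2 months. A treatment field, worded alike for every sample, calls the old mice the treated ones and does not say which these are. Which set is the old one could not be settled from the labels, so groups are named by their titles. The series asks how liver transcripts differ with age.

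Glutathione S-transferases join the tripeptide glutathione to reactive, electrophilic compounds, among them drugs, carcinogens and products of lipid peroxidation. The conjugates are then pumped out of the cell and trimmed to mercapturates. Alpha, mu, pi and theta enzymes are soluble and work as dimers, while the kappa enzyme lies in mitochondria and peroxisomes and belongs to a separate fold family. In mouse liver the pi enzyme is known for its higher level in males, and many alpha and mu genes are known targets of the antioxidant regulator NRF2.

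The libraries held between 545171 and 2593200 mapped reads. The floor of detection was taken as 3 reads, or 1.16 to 5.50 CPM, the usual unit of reads relative to library size. The O-titled female of replicate 3 stood apart: its reads from Mup genes, which encode urinary proteins, were 0.287% of mapped reads, against 3.04 to 4.65% in the other females. Several results of the 10 genes that turned on this library are given with and without it. Y-titled replicate 4 had 11.1% mitochondrial reads, against 6.82 to 8.66% in the other 7 libraries. Hepatocyte markers summed to 68200 to 115536 CPM, as liver libraries should hold, and cholangiocyte markers to 19.8 to 48.7 CPM. In females the hepatocyte sums were 68200 to 84546 CPM in the O-titled set, against 94183 to 115536 CPM in the Y-titled set. There 2 of 5 markers fell in O-titled libraries, where 5.47% of tested genes were called. In males the sums of the sets overlapped. The part of this in the values below was not tested. The 10 genes took 0.503 to 0.619% of mapped reads in O-titled and 0.403 to 0.864% in Y-titled libraries. All levels below are CPM after TMM scaling, which evens out differences in library composition. In whole tissue, fewer cells of a type and less RNA per cell cannot be told apart.

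The 3 most abundant genes, 1 each of the pi, mu and alpha classes, were close to one another. Averaged over the 8 libraries, Gstp1 was at 1781 CPM, Gstm1 at 1698 CPM and Gsta3 at 1598 CPM. Their ranges overlapped, at 468 to 4753, 1454 to 1917 and 1265 to 1815 CPM, so their order is not beyond the spread between libraries. Gstt1 followed at 363 CPM and Gstk1 at 155 CPM, and their ranges of 218 to 475 and 126 to 189 CPM did not overlap. The other 5, Gstm6 at 104, Gstm3 at 92.5, Gstm2 at 81.5, Gstp2 at 78.7 and Gsta4 at 77.5 CPM, overlapped one another. Divided by the length of the main transcript, the first 5 kept their order, from 2169 CPM per kilobase for Gstp1 to 167 for Gstk1, and the next was Gstp2 at 98.7 CPM per kilobase.

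**Figure D1:**
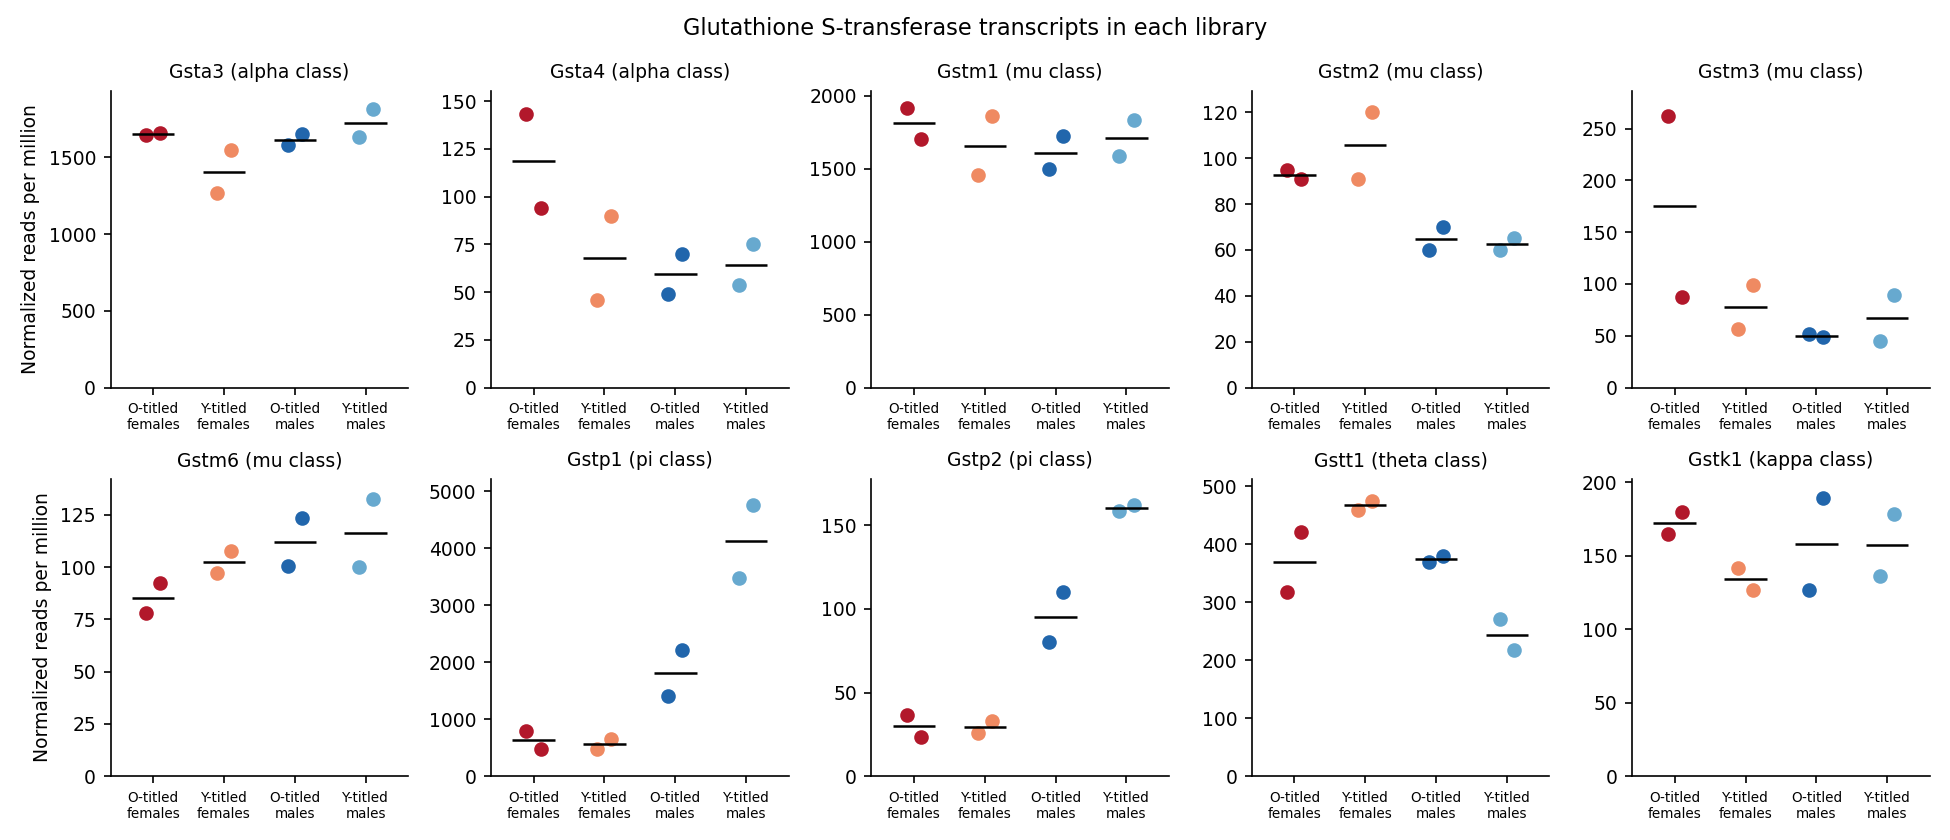
Level of each of the 10 genes in normalized CPM (vertical axes, from 0), with a point for each library and a bar at the mean of each pair. Gstp1 and Gstp2 are lower in all 4 females than in all 4 males, Gstm2 is the other way round, and Gstt1 moves in opposite directions between O-titled and Y-titled libraries in the sexes.

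The pi genes differed most between libraries. Gstp1 (ENSMUSG00000060803) and its neighbour Gstp2 (ENSMUSG00000038155) lie on the minus strand of chromosome 19 at chr19:4035407-4037985 and chr19:4040285-4046023 of mm10 (GRCm38). Their coding sequences of 633 bases differ at 12 positions, an identity of 98.1%. Counted from the first base of the start codon, with the Gstp1 base first, the 12 are A6G, A9G, G31A, T32G, G35C, A57C, A268G, T314G, C319A, C321G, C329G and C330A. The stretch from coding base 244 to 333 holds 6 of them, shown in capitals because these letters are what tells the transcripts apart (GENCODE M21, minus strand, chr19:4036691-4036780 for Gstp1 and chr19:4040985-4041074 for Gstp2).
Gstp1: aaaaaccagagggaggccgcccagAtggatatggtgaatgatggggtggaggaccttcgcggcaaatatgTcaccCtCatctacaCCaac
Gstp2: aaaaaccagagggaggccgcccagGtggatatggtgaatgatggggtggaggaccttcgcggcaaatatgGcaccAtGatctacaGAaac
From the 3′ end, where direct RNA reads begin, the 2 transcripts are identical over 369 bases before the first difference.

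Gstp2 reads were short. They averaged 444 bases, 55.7% of the 797 bases of the annotated transcript, and between 406 and 475 bases in the single libraries. Their median per library was 375.5 to 427 bases, close to the length of the shared 3′ run. Reads of the main Gstp1 transcript averaged 787 of 821 bases, or 95.8%. How the counting placed reads that fit both genes was not given in the sources used here, so the split between them is uncertain. Gstp2 made up 3.30 to 5.37% of the reads of the pair in the single libraries, and this share was lowest in Y-titled replicate 2, at 82 of the pair's reads (exact 95% interval 2.63 to 4.08%, counting error only) and highest in O-titled replicate 1 (4.68 to 6.12%). The Gstp1 and Gstp2 values below are therefore not independent of each other.

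**Figure D2:**
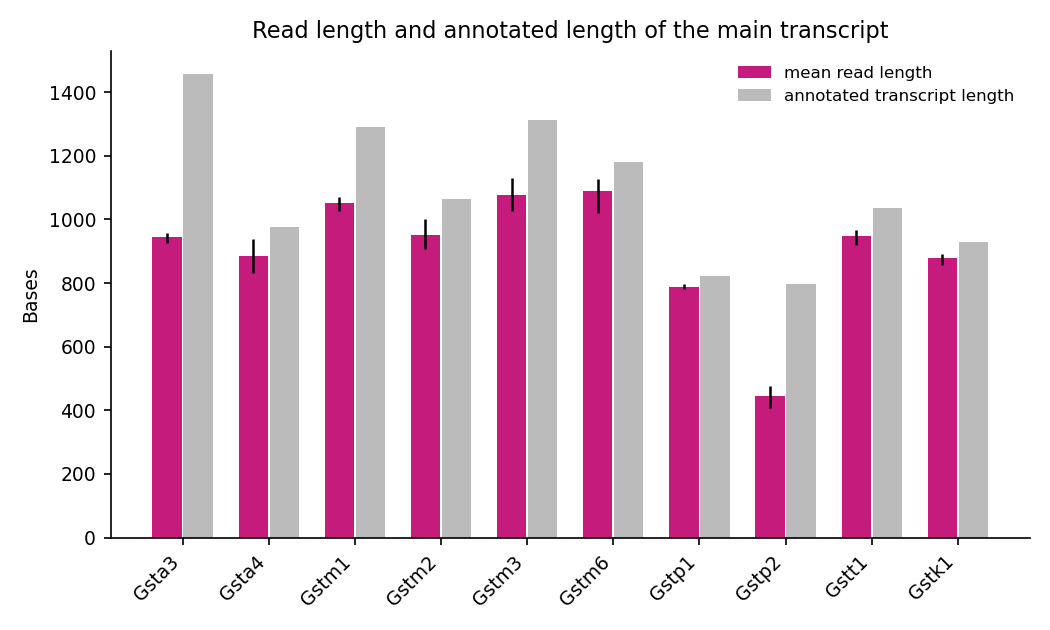
Mean length of the reads of each gene's most-read transcript (coloured bars, vertical lines from the lowest to the highest library mean) beside the annotated length of that transcript (grey bars), in bases. Gstp2 reads average 444 of 797 bases and Gsta3 reads 944 of 1457 bases, while Gstp1 reads reach 787 of 821 bases.

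Gstp1 was lower in females. It was at 788 and 468 CPM in O-titled females and 478 and 644 CPM in Y-titled females, against 1410 and 2218 CPM in O-titled males and 3485 and 4753 CPM in Y-titled males. All 4 females lay below all 4 males, and the males were spread more widely than the females. The means were 595 ± 152 CPM in females and 2967 ± 1466 CPM in males (SD, n = 4 each). The log2 fold change of females over males was -2.20 (SE 0.40), but the edgeR quasi-likelihood test gave an adjusted p of 0.0656, above the threshold of 0.05. DESeq2, run as an alternative, called it (adjusted p = 8.97e-12), along with 2.6% of tested genes. edgeR called it in 2 of the 8 fits without 1 library, without O-titled replicate 1 (-2.47, adjusted p = 0.0214) and without O-titled replicate 3 (-2.50, adjusted p = 0.00323). Over the 8 the change ran from -2.50 to -1.96.

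Gstp2 had the same order of the sexes. It was at 36.5 and 23.1 CPM in O-titled females and 25.7 and 33.2 CPM in Y-titled females, against 80.0 and 110 CPM in O-titled males and 159 and 162 CPM in Y-titled males. The females again lay below every male. The means were 29.6 ± 6.26 CPM in females and 128 ± 39.8 CPM in males (n = 4 each), a 4.12-fold lower level in females (log2 fold -2.04, SE 0.19, adjusted p = 5.55e-06). With the reads of Gstp1, Gstp2 and Gstp3 summed, the log2 fold change was -2.12 and the adjusted p 0.0543, so the call holds for Gstp2 counted alone and not for the sum.

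Of the 10 genes, 2 passed the test between females and males, Gstp2 lower and Gstm2 higher in females, where 2.96% of the 6759 tested genes were called. The values of 3 of the 10 did not overlap between the sexes (Gstp1, Gstp2 and Gstm2), against 6.52% of the tested genes. The median log2 fold change of the 10 was 0.02, beside -0.00151 over all tested genes.

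Among males, both pi genes were lower in the O-titled than in the Y-titled libraries, and the values of the sets did not overlap. The difference did not pass the test for Gstp1 (log2 fold -1.18, SE 0.36, adjusted p = 0.329) or for Gstp2 (-0.80, SE 0.20, adjusted p = 0.0585). Over the 8 fits without 1 library the change in males ran from -1.539 to -0.8895 for Gstp1 and from -0.9954 to -0.5367 for Gstp2. These fits fell on both sides of the threshold, and each leaves 1 library in a group of title and sex. O-titled replicates 3 and 4 are females, so leaving them out takes away no male value. Without replicate 3 or 4 the change was -1.185 and -1.183 for Gstp1, and -0.8051 and -0.8033 for Gstp2. With no filter on low counts edgeR called both, Gstp1 at -1.20 (adjusted p = 3.47e-08) and Gstp2 at -0.82 (adjusted p = 0.0029), where 211 of 15751 genes were called. DESeq2 gave an adjusted p of 0.142 for Gstp1 and 0.294 for Gstp2. Within males, 1.26% of tested genes were called and 40.7% had values that did not overlap, as 2 against 2 libraries often give.

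Among females, the O-titled and Y-titled values of both pi genes overlapped. The log2 fold change was 0.16 (SE 0.36) for Gstp1 and -0.01 (SE 0.28) for Gstp2, where 5.47% of tested genes were called. Without O-titled replicate 3 that of Gstp1 was -0.25. The difference between the sexes, taken as the O-titled over Y-titled change in females minus that in males, was 1.35 (SE 0.50, adjusted p = 0.554) for Gstp1 and 0.79 (SE 0.34, adjusted p = 0.540) for Gstp2. Neither passed, where 0.385% of tested genes did. With no filter Gstp1 did (1.35, adjusted p = 3.54e-05), where 100 of 15751 genes passed. Pooled over the sexes, the O-titled over Y-titled log2 fold change was -0.52 (SE 0.39, adjusted p = 0.619) for Gstp1 and -0.51 (SE 0.19, adjusted p = 0.175) for Gstp2. Without the O-titled female of replicate 3, Gstp2 passed (-0.68, adjusted p = 0.0350), and Gstp1 was at -0.80 (adjusted p = 0.208). Over all 8 fits without 1 library Gstp1 ran from -0.80 to -0.24 and Gstp2 from -0.68 to -0.28. Gstp2 also passed with no filter (-0.52, adjusted p = 0.0375).

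Gstp3 (ENSMUSG00000058216, chr19:4057477-4059569), the next gene along and not one of the 10, had the opposite order between the sexes. It was at 32.1 and 45.5 CPM in O-titled females and 45.01 and 35.01 CPM in Y-titled females, against 25.4 and 22.8 CPM in O-titled males and 23.9 and 23.8 CPM in Y-titled males. All females lay above all males. The log2 fold change of females over males was 0.70 (SE 0.18, adjusted p = 0.0443). This call was lost in 7 of the 8 fits without 1 library, at adjusted p values from 0.0602 (without Y-titled replicate 4) to 0.198 (without O-titled replicate 4), with log2 fold changes of 0.59 to 0.81 over all 8. DESeq2 did not make it (adjusted p = 0.159). Its coding sequence is 76.5% identical to that of Gstp1 over the aligned bases.

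The promoters of the 3 pi genes are shown because the genes are neighbours. As the split of reads between Gstp1 and Gstp2 is uncertain, their alike counts do not show a shared control, which was not tested. Each is the 250 bases before the annotated start, from RefSeq on GRCm38.p6, minus strand, at chr19:4037913-4038162 for Gstp1, chr19:4042222-4042471 for Gstp2 and chr19:4059448-4059697 for Gstp3. Capitals mark TGAGTCA, the consensus of the AP-1 factors, which was searched after the windows had been read.
Gstp1: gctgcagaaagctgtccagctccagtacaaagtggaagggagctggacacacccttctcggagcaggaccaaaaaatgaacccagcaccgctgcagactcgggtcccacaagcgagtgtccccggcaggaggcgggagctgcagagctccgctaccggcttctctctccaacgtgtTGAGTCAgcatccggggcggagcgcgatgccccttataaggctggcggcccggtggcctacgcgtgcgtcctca
Gstp2: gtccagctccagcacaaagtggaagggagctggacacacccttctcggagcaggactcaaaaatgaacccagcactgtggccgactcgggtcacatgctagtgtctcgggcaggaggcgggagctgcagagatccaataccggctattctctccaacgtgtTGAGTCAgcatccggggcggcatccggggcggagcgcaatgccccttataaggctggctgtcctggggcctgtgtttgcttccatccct
Gstp3: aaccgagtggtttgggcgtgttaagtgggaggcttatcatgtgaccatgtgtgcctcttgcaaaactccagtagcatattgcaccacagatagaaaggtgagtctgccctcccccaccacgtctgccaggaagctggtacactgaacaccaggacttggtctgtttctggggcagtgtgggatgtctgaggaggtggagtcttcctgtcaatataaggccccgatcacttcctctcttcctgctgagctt

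The Gstp1 and Gstp2 windows were 88.5% identical over 235 aligned bases. TGAGTCA begins 74 bases before the start of Gstp1 and 89 bases before that of Gstp2, and was found in 5.20% of 32851 RefSeq windows of 300 bases, which run on for 50 bases past the start. Both strands were searched for this and 2 further motifs. TGACNNNGC, the core of the antioxidant response element bound by NRF2, was in 12.4% of all windows and, of the members, in Gsta3 alone, as TGACATTGC from 121 bases before its start. TTCNNNGAA, the motif of the growth hormone-driven factor STAT5, was in 8.30% of all windows and in 1 of the 3 Gstm6 windows. Of the 10 genes, 9 had a window, and Gsta4 had no entry. A match of letters is a description and no site of binding.

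The pi class differed most in its share of the family's reads. Gstp1 and Gstp2 together held 15.1 and 10.2% of the reads of the 10 genes in O-titled females and 12.2 and 13.3% in Y-titled females, against 28.0 and 35.4% in O-titled males and 48.4 and 52.7% in Y-titled males. Every male lay above every female, and the Y-titled males lay above the O-titled males. The mu class held 41.0 to 43.2% in females and 22.7 to 32.1% in males, and the alpha class 31.9 to 36.3% in females and 20.3 to 30.6% in males. These shares sum to the whole, so a larger pi share lowers the others. In CPM, the mu class was at 2055 ± 282 in females and 1897 ± 183 in males, and the alpha class at 1621 ± 217 in females and 1731 ± 113 in males (n = 4 each). The pi class was at 624 ± 158 CPM in females and 3094 ± 1503 CPM in males.

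**Figure D3:**
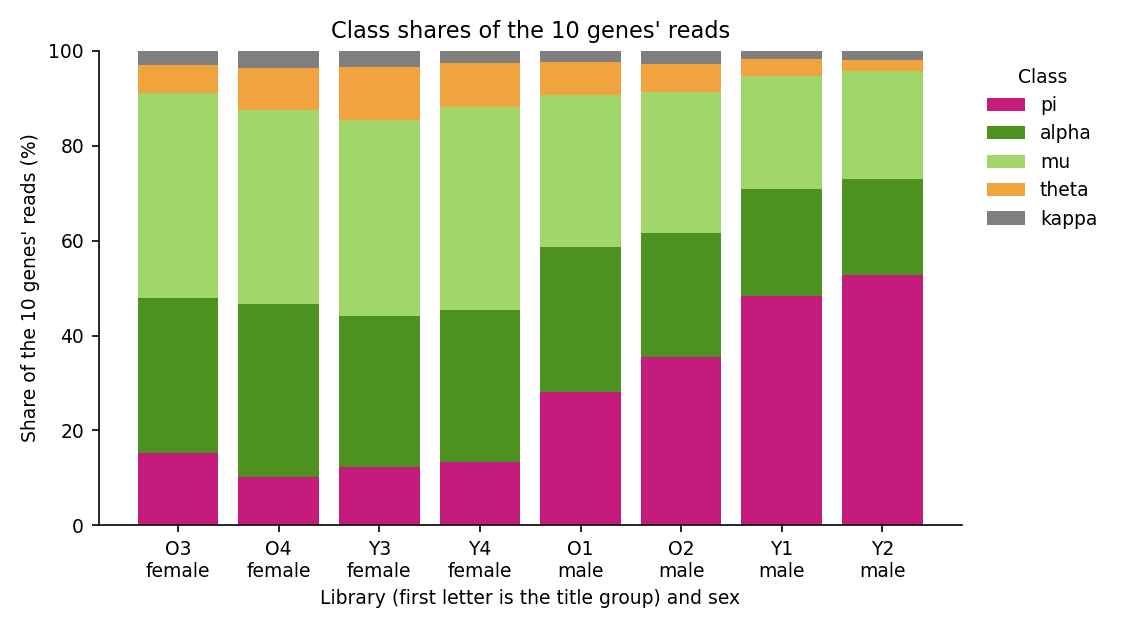
Share of the reads of the 10 genes in each class (stacked bars, percent, from 0 to 100) in each library, with females on the left. The pi share is 10.2 to 15.1% in females and 28.0 to 52.7% in males, with the Y-titled males highest.

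Summed markers of red cells, with all 4 genes read, overlapped between the sexes, at 1689 to 2764 CPM in females and 2062 to 4551 CPM in males. Of the 4, 0 passed the edgeR test, where 2.96% of tested genes did. At an unadjusted p under 0.05 there were 2, where 12.3% of tested genes were. Within males the summed markers were 2062 to 2624 CPM in the O-titled set, against 2742 to 4551 CPM in the Y-titled set. There all 4 had a log2 fold change below 0 (median -0.64) and 1, Hbb-bt, passed (adjusted p = 0.0126), where 1.26% of tested genes did. Their part in the pi values was not tested. Of 23 tested male-biased liver genes, 14 fell in females and none rose, where 2.96% of all tested genes were called. Of these 23, 7 fell in O-titled libraries and none rose, where 4.01% were called. Among them the elongase Elovl3 averaged 4.92 CPM in females, near the floor of detection, and 178 CPM in males. In males it averaged 60.6 CPM in the O-titled set, against 296 CPM in the Y-titled set. Hsd3b5, a steroid dehydrogenase of male liver, averaged 4.33 CPM in females, also near the floor, and 165 CPM in males. In males it averaged 60.4 CPM in the O-titled set, against 270 CPM in the Y-titled set. Of 22 tested female-biased genes, 17 rose in females and 4 rose in O-titled libraries, beside the same shares of all tested genes. These lists rest on known sex differences of mouse liver.

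Gstt1, the theta enzyme that acts on small halogenated compounds, was the member whose title groups lay apart in both sexes in opposite directions. In males it was at 368 and 379 CPM in the O-titled libraries, against 270 and 218 CPM in the Y-titled ones. In females it was at 317 and 420 CPM in the O-titled libraries, against 459 and 475 CPM in the Y-titled ones. The O-titled males were thus higher and the O-titled females lower than their Y-titled counterparts, a pattern that 5.67% of the tested genes had. Gstt1 (ENSMUSG00000001663) lies at chr10:75783813-75798584.

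The Gstt1 change in males was 0.60 on the log2 scale (SE 0.16, adjusted p = 0.0831) and that in females -0.34 (SE 0.16, adjusted p = 0.287). Their difference was -0.94 (SE 0.23), with an adjusted p of 0.0898 in edgeR and 0.106 in DESeq2. It therefore did not pass, though it did with no filter (-0.92, adjusted p = 0.00991). Over the 8 fits without 1 library it ran from -1.13 to -0.74. The change in males ran from 0.47 to 0.78 over such fits, on both sides of the threshold. Without O-titled replicate 3 or 4, both females, it was 0.596 and 0.597. With no filter it passed (adjusted p = 0.0275). Pooled, the title groups were at 371 ± 42.4 CPM (O) and 355 ± 131 CPM (Y; n = 4 each), with a log2 fold change of 0.12 (SE 0.19, adjusted p = 0.828). Between the sexes the means were 418 ± 71.1 CPM in females and 309 ± 78.0 CPM in males (log2 fold 0.45, SE 0.19, adjusted p = 0.350). Over the 8 fits without 1 library that change ran from 0.29 to 0.62 and passed in 1, without O-titled replicate 3 (0.62, adjusted p = 0.0276). It also passed with no filter (0.44, adjusted p = 0.0196).

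The neighbouring theta genes on chromosome 10, which are not among the 10, were higher in O-titled libraries. Gstt2 (chr10:75831114-75837424) was at 56.1, 68.5, 98.1 and 127 CPM in O-titled replicates 1 to 4, against 49.1, 27.7, 58.8 and 69.1 CPM in Y-titled ones. Its O-titled values lay above the Y-titled ones within each sex (log2 fold 0.69, SE 0.17, adjusted p = 0.0225). Gstt3 (chr10:75774115-75781414) was at 71.5, 84.6, 92.0 and 131 CPM in O-titled libraries, against 43.4, 21.8, 75.3 and 88.0 CPM in Y-titled ones (0.72, SE 0.19, adjusted p = 0.0429). Both were also higher in females than in males, with log2 fold changes of 0.77 (SE 0.17, adjusted p = 0.0144) for Gstt2 and 0.81 (SE 0.19, adjusted p = 0.0297) for Gstt3. Within females the O-titled over Y-titled log2 fold change was 0.82 for Gstt2 (SE 0.22, adjusted p = 0.0300) and 0.46 for Gstt3 (SE 0.22, adjusted p = 0.315), where that of Gstt1 was -0.34. Within males it was 0.53 for Gstt2 (SE 0.25, adjusted p = 0.511) and 1.07 for Gstt3 (SE 0.26, adjusted p = 0.0526). Markers of stellate cells, all 6 read, summed to 218 to 262 CPM in the O-titled set, against 135 to 193 CPM in the Y-titled set, and their part in these changes was not tested.

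**Figure D4:**
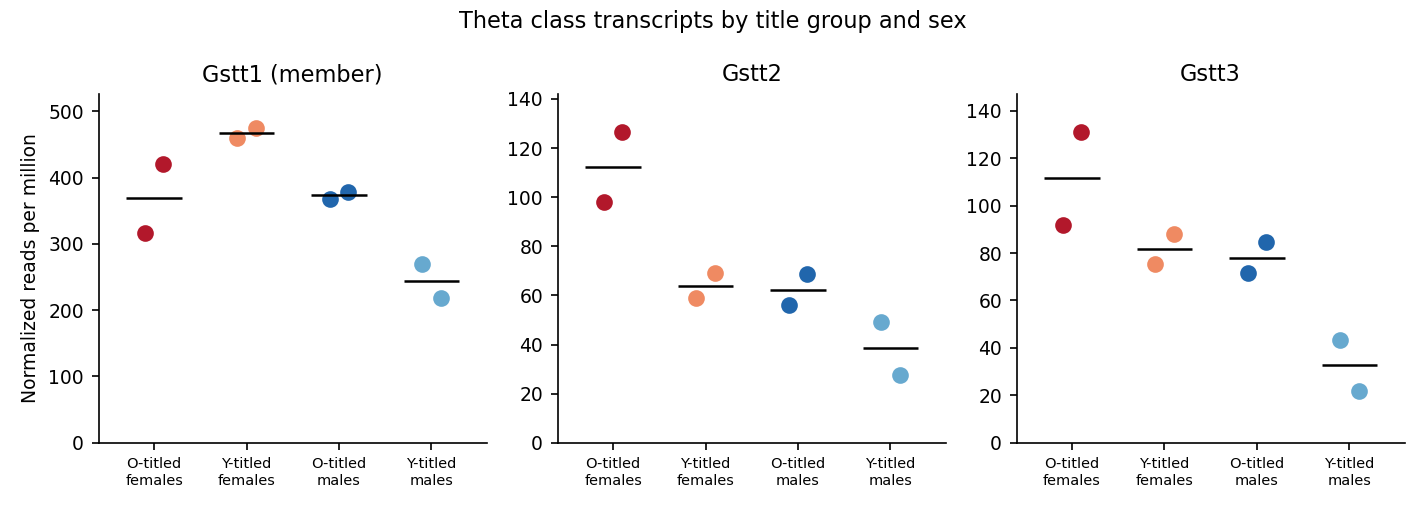
Levels of 3 theta class genes in normalized CPM (vertical axes, from 0), with a point for each library and a bar at the mean of each pair. O-titled libraries are above Y-titled ones in both sexes for Gstt2 and Gstt3, whereas for Gstt1 they are above in males and below in females.

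The Gstt2 and Gstt3 calls were lost in some fits, with changes of about the same size. Without 1 library, the change between title groups ran from 0.58 to 0.90 for Gstt2 and from 0.60 to 0.88 for Gstt3, and that between the sexes from 0.65 to 0.97 and from 0.68 to 0.96. Between title groups, the Gstt2 call was lost without O-titled replicate 4 (adjusted p = 0.0903), without Y-titled replicate 3 (0.113) and without Y-titled replicate 4 (0.0763), and the fit with replicate number as a block put it at 0.0519. The Gstt3 call was lost without O-titled replicates 1, 2 or 4 (0.115, 0.0728 and 0.139), without Y-titled replicates 1 or 3 (0.115 and 0.122), and with the block (0.0883). Between the sexes, Gstt2 lost its call without O-titled replicates 1 or 4 (0.115 and 0.0735) or Y-titled replicate 4 (0.0502). Gstt3 lost it without O-titled replicates 1 or 4 (0.115 and 0.125) or Y-titled replicates 1, 3 or 4 (0.118, 0.0778 and 0.0885). With no covariate the adjusted p for Gstt2 and Gstt3 was 0.335 and 0.507 between title groups, and 0.359 and 0.545 between the sexes. After thinning to the shallowest library it was 0.142 and 0.0527 between title groups, and 0.115 and 0.0747 between the sexes.

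The 4 mu genes lie side by side on the minus strand of chromosome 3, Gstm6 at chr3:107938847-107943749, Gstm3 at chr3:107963696-107969283, Gstm2 at chr3:107981702-107986453 and Gstm1 at chr3:108012255-108017973. Mu enzymes conjugate epoxides and quinones, among other compounds. Among them, Gstm2 (ENSMUSG00000040562) was higher in females. It was at 94.6 and 91.0 CPM in O-titled females and 90.9 and 120 CPM in Y-titled females, against 59.96 and 69.9 CPM in O-titled males and 59.8 and 65.3 CPM in Y-titled males. No female library overlapped a male one. The means were 99.2 ± 14.1 CPM in females and 63.7 ± 4.82 CPM in males, a 1.57-fold higher level (log2 fold 0.65, SE 0.14, adjusted p = 0.0141). The call was lost without O-titled replicate 1 (0.63, adjusted p = 0.0641), Y-titled replicate 1 (0.60, adjusted p = 0.0887) or Y-titled replicate 4 (0.55, adjusted p = 0.0711), and DESeq2 made it (adjusted p = 0.0266). Between the title groups Gstm2 had a log2 fold change of -0.08 (SE 0.14, adjusted p = 0.839).

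Gstm1 (ENSMUSG00000058135), the most abundant mu enzyme, was even across libraries. It was at 1499, 1724, 1917 and 1707 CPM in O-titled replicates 1 to 4, against 1587, 1833, 1454 and 1863 CPM in Y-titled ones. The values of the groups overlapped fully, with a log2 fold change of 0.02 (SE 0.12, approximate 95% interval -0.21 to 0.25, adjusted p = 0.971). Between the sexes it was 0.06 (SE 0.12, interval -0.17 to 0.29). Summed over Gstm1 to Gstm7, the mu genes gave 0.10 between the sexes (adjusted p = 0.840), so the Gstm2 change is not seen in the sum that Gstm1 dominates. Coding identities among the 4 mu members were 83.7 to 89.5%.

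Gstm3 (ENSMUSG00000004038) was set apart by 1 library. It was at 51.9, 48.4, 262 and 87.5 CPM in O-titled replicates 1 to 4, against 45.3, 89.1, 57.0 and 98.7 CPM in Y-titled ones. The O-titled female of replicate 3, the library low in Mup reads, lay above all 7 others. The O-titled over Y-titled log2 fold change was 0.54 (SE 0.56, adjusted p = 0.733), and -0.05 without that library. Between the sexes it was 1.13 (SE 0.56, adjusted p = 0.541), and 0.55 without it. In females the O-titled over Y-titled change was 1.15 (SE 0.68, adjusted p = 0.528). Over the 8 fits without 1 library it ran from 0.18 to 1.77. It was highest without O-titled replicate 4, which leaves replicate 3 as the sole O-titled female.

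Gstm6 (ENSMUSG00000068762) was at 100, 124, 78.1 and 92.4 CPM in O-titled replicates 1 to 4, against 100, 133, 97.4 and 108 CPM in Y-titled ones. The groups overlapped, though O-titled females lay below Y-titled females. The change on the log2 scale was -0.15 (SE 0.14, adjusted p = 0.664) between the title groups and -0.26 (SE 0.14, adjusted p = 0.5005) between females and males.

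Gsta3, the main alpha enzyme here, known in mice for detoxifying the aflatoxin epoxide (ENSMUSG00000025934, chr1:21240589-21265661), was even across libraries. It was at 1578, 1650, 1643 and 1659 CPM in O-titled replicates 1 to 4, against 1633, 1815, 1265 and 1546 CPM in Y-titled ones. The O-titled values lay close together and within the Y-titled range. The log2 fold change was 0.07 (SE 0.11, interval -0.15 to 0.29, adjusted p = 0.838), and -0.13 between the sexes (SE 0.11, adjusted p = 0.750).

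Gsta4 (ENSMUSG00000032348, chr9:78182774-78209349), the alpha enzyme that conjugates hydroxynonenal, a product of lipid peroxidation, was highest in the same O-titled female as Gstm3. It was at 48.8, 69.9, 143 and 93.8 CPM in O-titled replicates 1 to 4, against 53.5, 75.2, 45.9 and 89.8 CPM in Y-titled ones. O-titled females lay above Y-titled females, while the males overlapped. The log2 fold change was 0.39 (SE 0.30, adjusted p = 0.616) between the title groups, and 0.16 without O-titled replicate 3. In females it was 0.79 (SE 0.34, adjusted p = 0.291), and over the 8 fits without 1 library it ran from 0.39 (without Y-titled replicate 3) to 1.37 (without Y-titled replicate 4, adjusted p = 0.0384, the only one to pass). With no filter it also passed (adjusted p = 0.0040). Between the sexes it was 0.64 (SE 0.30, adjusted p = 0.460), with a range of 0.39 to 0.86 over such fits. It passed without Y-titled replicate 3 (0.86, adjusted p = 0.0395) and with no filter (0.63, adjusted p = 0.00558).

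Other alpha genes were also highest in that library. Gsta2 was at 99.0 CPM in O-titled replicate 3 and at 23.1 to 36.4 CPM in the other O-titled libraries, against 9.19 to 38.6 CPM in Y-titled ones (log2 fold 1.15, SE 0.64, adjusted p = 0.476). Without that library the log2 fold change was 0.63. Gsta1, with too few reads to be tested, was at 46.9 CPM in that library and at 12.1 CPM or less in the others. Its 75 O-titled against 16 Y-titled reads gave a two-sided exact permutation p of 0.257 over 70 assignments, of which 0.0286 is the smallest possible. Markers of Kupffer cells and macrophages, all 9 read, summed to 386 to 1053 CPM in the O-titled set, against 424 to 502 CPM in the Y-titled set, and their part in these values was not tested.

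Gstk1 (ENSMUSG00000029864, chr6:42245935-42250447), the kappa enzyme of mitochondria and peroxisomes, was at 126, 189, 165 and 180 CPM in O-titled replicates 1 to 4, against 136, 178, 141 and 127 CPM in Y-titled ones. The groups overlapped, with O-titled females above Y-titled females. Its log2 fold change was 0.19 (SE 0.15, interval -0.10 to 0.47, adjusted p = 0.592) between the title groups and -0.01 (SE 0.15, interval -0.30 to 0.27) between the sexes. In females it was 0.36 (SE 0.19, adjusted p = 0.362) and in males 0.00 (SE 0.20).

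Between O-titled and Y-titled livers, 0 of the 10 genes passed the edgeR quasi-likelihood test, where 4.01% of tested genes were called. At an unadjusted p under 0.05 there was 1, Gstp2, where 16.2% of tested genes were, and DESeq2 called 0, where it called 3.52% of tested genes. None of the 10 had values that lay apart between the title groups, against 8.71% of tested genes. Their median log2 fold change was 0.04, beside -0.000952 over all tested genes, and 6 of the 10 were above 0. Within males 3 of the 10 lay apart, and within females 5 of the 10, where 40.7 and 46.2% of tested genes did. None of the 10 passed within either sex or in the difference between the sexes in the edgeR test after the filter. With no filter, Gstp1, Gstp2 and Gstt1 passed in males, Gsta4 in females, and Gstp1 and Gstt1 in the difference. In those 3 comparisons the fit with no filter called 211, 553 and 100 of 15751 genes. At an unadjusted p under 0.05 there were 3 of the 10 in males, 2 in females and 3 in the difference, where 9.45, 16.5 and 8.46% of tested genes were. DESeq2 called none of the 10 in any of the 3, where it called 0.873, 2.83 and 0.577% of tested genes.

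**Figure D5:**
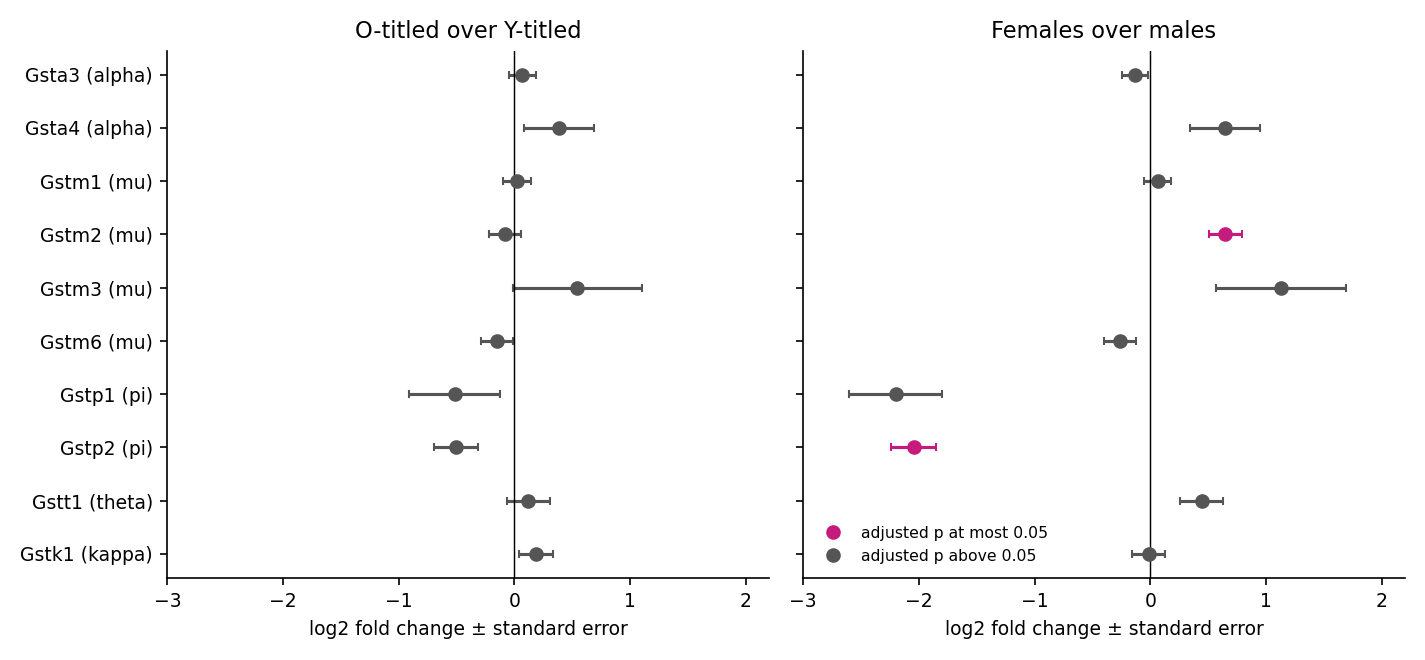
Log2 fold change with its standard error (horizontal axes) for the 10 genes, O-titled over Y-titled on the left and females over males on the right. No gene passes on the left; Gstp2 at -2.04 and Gstm2 at 0.65 pass on the right, and Gstp1 at -2.20 does not in edgeR.

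Most members were read as a single transcript. The share of the main transcript was 97.2% for Gsta3, 99.4% for Gstm1 and 94.8% for Gstp1, whose second form, Gstp1-208, held 3.85 to 6.30% of reads in the single libraries. Gstm6 was the exception, with 53.4% of its reads on Gstm6-204 and 46.5% on Gstm6-205. A change of transcript usage could be tested for Gsta3, Gstm1, Gstm6 and Gstp1. No gene of 1236 passed between the title groups or the sexes with diffSpliceDGE of edgeR (0% called), and at an unadjusted p under 0.05 there was none of these 4, whose lowest p was 0.296. No other tool was run on usage. Gsta3 reads averaged 944 bases, 64.8% of the 1457 bases of the annotated transcript.

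By a fixed measure of likeness, the root mean square difference of centred log2 CPM over the 8 libraries, Gstp1 was nearest to Alas2, the heme synthesis enzyme of red cells, at 0.42, against 1.22 for a flat line and a median of 1.26 over 6738 genes. Alas2 was at 21.7 and 9.80 CPM in O-titled females and 12.9 and 18.8 CPM in Y-titled females, against 87.3 and 84.6 CPM in O-titled males and 108 and 129 CPM in Y-titled males. Ttc39c (0.47) and Ociad2 (0.51) came next. Gstt1 was nearest to the water channel Aqp1 (0.08), the sinusoidal lectin Clec4g (0.14) and the chaperone Dnajb4 (0.14). Aqp1 was at 96.5 and 92.7 CPM in O-titled males and 76.2 and 57.4 CPM in Y-titled males, and at 83.3 and 103 CPM in O-titled females and 112 and 112 CPM in Y-titled females. Markers of sinusoidal endothelium, all 7 read and Clec4g among them, summed to 213 to 267 CPM in O-titled males, against 180 to 184 CPM in Y-titled males. In females the sums of the sets overlapped. The part of these markers in the Gstt1 values was not tested. Gstm1 was nearest to Ndufa9 (0.04), Gsta3 to Tm7sf3 (0.07) and Gstk1 to Macf1 (0.09), all with little variation of their own to match.

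Of 11 further tested genes of the family, 2 rose in O-titled libraries, Gstt2 and Gstt3, and none fell, where 4.01% of all tested genes were called. Between the sexes 4 rose in females, Gstt2, Gstt3, Gstp3 and Mgst3, and none fell, where 2.96% were called. Mgst3, a membrane-bound enzyme of leukotriene and peroxide metabolism, was at 70.9 ± 11.5 CPM in females and 34.0 ± 8.62 CPM in males (log2 fold 1.07, SE 0.17, adjusted p = 9.38e-04). The most abundant, the microsomal Mgst1, was at 3948 ± 494 CPM in females and 5363 ± 712 CPM in males (-0.44, SE 0.12, adjusted p = 0.0725), and passed with no filter (adjusted p = 0.00169). Gstz1, the isomerase of tyrosine breakdown, had log2 fold changes of 0.18 between the title groups (adjusted p = 0.437) and 0.02 between the sexes, and Gsto1, a thioltransferase, -0.47 (adjusted p = 0.118, and 0.0195 with no filter) and 0.25. Gstm4, Gstm5 and Gstm7 had title-group changes of -0.16, 0.40 and -0.15, none past the test. Gstcd, Hpgds and Gsto2 had too few reads, and Gstt4 and Mgst2 had 0 reads in each library, under the floor of 1.16 to 5.50 CPM.

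Of 20 tested genes of glutathione synthesis and turnover, 1 fell and 1 rose in O-titled libraries, beside the 4.01% of all tested genes called. The median log2 fold change of the 20 was -0.07. Gclc, the catalytic subunit of the rate-limiting enzyme of glutathione synthesis, fell to 80.5 ± 7.78 CPM in O-titled libraries, against 152 ± 49.6 CPM in Y-titled ones (log2 fold -0.88, SE 0.18, adjusted p = 0.0134). Ggt6, of the gamma-glutamyltransferase family that breaks glutathione down, rose to 31.5 ± 5.62 CPM, against 12.2 ± 3.56 CPM (1.27, SE 0.23, adjusted p = 0.00340). Of 3 tested glutathione peroxidases none passed over both sexes, with Gpx1, which reduces peroxides with glutathione, at 2207 CPM in the O-titled set, against 2571 CPM in the Y-titled set. Within males Gpx1 fell to 1661 ± 50.1 CPM in O-titled libraries, against 2695 ± 271 CPM in Y-titled ones (-0.70, SE 0.15, adjusted p = 0.0235, n = 2 each, edgeR quasi-likelihood test). Of 21 tested NRF2 targets outside the family none passed between the title groups over both sexes, with 3 at an unadjusted p under 0.05. Within females 1 rose and 1 fell in O-titled libraries, where 5.47% of tested genes were called. Between the sexes 1 rose in females, the carboxylesterase Ces1g (0.66, adjusted p = 0.00329).

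Of 16 tested targets of xenobiotic receptors, 3 rose in O-titled libraries and none fell: Alas1 of heme synthesis (log2 fold 1.66), Por, the electron donor of the cytochromes P450 (1.34), and Papss2, which makes the sulfate donor (0.65). The share of all tested genes called was 4.01%, and the median of the 16 was 0.04. Within the sexes some fell in O-titled libraries. In females these were Cyp2c50 (-0.66) and Cyp2c54 (-1.24), beside 5 that rose, where 5.47% of tested genes were called. In males it was Cyp3a25 (-0.81), beside 2 that rose, where 1.26% were called. Between females and males, 5 of the 16 were higher in females and none lower, led by Cyp2b10 (3.18), where 2.96% of tested genes were called. Of 13 genes of conjugate export and mercapturate formation, the mitochondrial carrier Slc25a10 rose in O-titled libraries (0.69, SE 0.14, adjusted p = 0.00641), and the efflux pump Abcg2 fell in females, to 34.6 CPM against 79.7 CPM in males (-1.17, SE 0.16). Of 18 tested regulators none passed between the title groups over both sexes. Within females 1 fell in O-titled libraries, where 5.47% of tested genes were called. Between the sexes the xenobiotic receptor Nr1i2 rose in females (0.60, SE 0.16, adjusted p = 0.0426). Of 15 tested clock genes, 6 rose and 1 fell in O-titled libraries. Usp2, a deubiquitinase with a daily rhythm, was at 30.4 CPM in the O-titled set and 1.16 CPM in the Y-titled set, near the floor of detection. The time of day of collection was not given in the labels.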

How the data were processed

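Whole reads per transcript were counted by the authors in 8 libraries, 1 per mouse, and these counts were deposited per transcript with the mean and median length of the reads. Per the submitters' processing notes, minimap2 2.24 and the build mm10 were used, and DESeq2 is named with no stated role. Which program counted the reads, on which annotation release, and where it put reads that fit more than 1 transcript is not given in the sources used here. Libraries were polyA selected, with an adapter ligated to the 5′ end, per the labels' protocols. No other per-sample values were used.

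Counts were summed per gene (27453 genes, GENCODE M21 names) and scaled with TMM factors. edgeR 4.0.16 (R 4.3.3, robust quasi-likelihood test) was fitted to all genes that passed filterByExpr at a minimum count of 10, 6759 genes, with title group and sex as terms. A second fit over the 4 groups of title and sex gave the changes within each sex and their difference. P-values were adjusted by Benjamini and Hochberg over all 6759 genes, with a threshold of 0.05. Intervals of a log2 fold change are the estimate with a normal 95% interval. Genes under the filter had an exact permutation test on log2(CPM + 0.5). DESeq2 1.42.0, other scaling, no filter, no covariate, a replicate block, thinning to the shallowest library, merged paralogs and leaving out each library were alternatives. The scripts were tested on simulated data.

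All members and tested family genes were named. Of each other list, named genes came from those called, largest fold first, and the most abundant, and not all are printed. Members and lists were chosen with earlier results of these data known. Depth was 545171 to 2593200 mapped reads, and intervals of shares and the floor of 3 reads cover counting error only. P-values measure the spread between these mice.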

Additional observations from a re-analysis of the deposited data

Results flagged for a closer look

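Among females, Gstm2 was at 120 CPM in Y-titled replicate 4, far from the other 3 females at 90.9 to 94.6 CPM. This library also had the most mitochondrial reads, 11.1% against 6.82 to 8.66% in the others, and the part of this in the value was not tested. Without this library the Gstm2 change between females and males was 0.55 on the log2 scale and did not pass (adjusted p = 0.0711). Among males, Gstm3 was at 89.1 CPM in Y-titled replicate 2, far from the other 3 males at 45.3 to 51.9 CPM. Of 84 groups of 4 libraries looked at, these 2 had a library that far from the rest, where chance flags about 1 in 20.

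Gstt1 lay apart between the title groups in opposite directions in the sexes. The O-titled over Y-titled log2 fold change in females minus that in males was -0.94 (SE 0.23, adjusted p = 0.0898 in edgeR), so the difference did not pass the test.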

How the results depend on the processing

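Of 965 single-gene values under the alternatives, 832 kept their direction and their side of the threshold, 64 changed sign, 41 lost and 28 gained a call. The main fit tested 6759 genes, the fit with no filter 15751, the thinned fit 4590 and the fits without 1 library 6956 to 7131. The counts below are therefore not out of equal totals. Genes called between title groups numbered 271, against 600 with no filter, 134 with no covariate, 136 thinned and 154 to 294 without 1 library. Between the sexes they numbered 200, against 401, 65, 115 and 125 to 217. Within males they numbered 85, against 211 with no filter and 31 to 127 without 1 library. Within females they numbered 370, against 191 in DESeq2, 206 thinned and 133 to 371 without 1 library. The difference had 26, against 100 with no filter and 8 to 45 without 1 library. The causes were not tested.

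No change that reversed had passed its test, except that of Gstp3 between the sexes with the pi genes merged (-2.12), where Gstp1 holds most reads. The other values whose sign changed follow. With mu genes merged, Gstm2, Gstm4, Gstm6 and Gstm7 gave 0.025 between title groups, Gstm4 and Gstm6 0.10 between the sexes, Gstm2 and Gstm6 0.12 in females and 0.18 in the difference, and Gstm2 -0.067 in males. With pi genes merged, Gstp3 gave -0.51 between title groups and Gstp2 0.14 in females. Between title groups Gstp3 gave -0.0064 with no filter, -0.0011 in DESeq2, -0.028 with no covariate, -0.0024 with the replicate block and -0.074 thinned. Thinning gave 0.074 for Gstk1 and -0.0033 for Gstz1 between the sexes, -0.17 for Gstm2 and -0.16 for Gstk1 in males, and 0.11 for Gstm2 in the difference. In males Gstk1 gave -0.00023 with RLE size factors and -0.013 with no filter, and in females Gstp2 gave 0.0068 in DESeq2.

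Without 1 library, title-group changes ran from -0.021 to 0.14 (Gsta3), -0.069 to 0.093 (Gstm1), -0.15 to 0.046 (Gstm2), -0.052 to 0.81 (Gstm3), -0.021 to 0.30 (Gstt1), -0.11 to 0.12 (Gstp3) and -0.14 to 0.0055 (Mgst1). Between the sexes they ran from -0.18 to 0.086 (Gstk1) and -0.032 to 0.062 (Gstz1). In males they ran from -0.41 to 0.19 (Gsta4), -0.18 to 0.020 (Gstm1), -0.037 to 0.18 (Gstm2), -0.81 to 0.16 (Gstm3), -0.27 to 0.13 (Gstm6) and -0.28 to 0.30 (Gstk1). In females they ran from -0.041 to 0.33 (Gstm1), -0.37 to 0.043 (Gstm2), -0.25 to 0.51 (Gstp1) and -0.34 to 0.33 (Gstp2), and Gstm6 in the difference from -0.39 to 0.015. A fit that leaves 1 library of a sex and title takes that library to vary like the others.

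With the replicate number as a block, 184 genes were called between title groups. Same-numbered libraries, which share a sex, had deviations that correlated at 0.22 to 0.411. Once sex was removed these were -0.0649 in males and -0.0275 in females. With 2 libraries per title and sex, the deviations of a pair mirror each other, so both replicate numbers of a sex give the same value. Whether same-numbered libraries share more than sex and number cannot be told from it. At 545171 mapped reads in the shallowest library, a gene under 5.50 CPM of mapped reads, or 5.94 CPM after TMM scaling, cannot be told from 0.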
